A study of Mus musculus with 3 samples.

Results

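The TGF-beta pathway of regulatory T cells (Treg cells) was followed through 10 genes chosen by name from 22457 counted genes: the ligands Tgfb1, Tgfb2 and Tgfb3, the ligand-docking protein GARP (gene Lrrc32), the receptors Tgfbr1 and Tgfbr2, and the signal transducers Smad2, Smad3, Smad4 and Smad7. All 10 matched a gene identifier in the deposited tables, and 9 reached 1 CPM (counts per 1e6 counts of the library) in each library, as did 47.25% of all counted genes. Poly(A) RNA had been sequenced from primary Treg cells of male adult mouse origin (4 months old), and the 3 libraries are labelled technical replicates 1, 2 and 3 of 1 biological sample. There is a single group with no other condition, and the sources used here do not give its strain, genotype, tissue, treatment or sorting markers. Every SD and p-value below is therefore about how far libraries from a single biological sample differ, not about animals.

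TGF-beta is secreted as a latent complex in which the mature dimer stays wrapped in its own propeptide. On Treg cells the latent complex is held at the surface by GARP and is freed by integrins. The active ligand brings together the receptor kinases Tgfbr2 and Tgfbr1, which phosphorylate Smad2 and Smad3. These bind Smad4 and enter the nucleus, and Smad7 is a target of the pathway that shuts the receptors off. In T cells the pathway is known for inducing Foxp3 and the integrin chain Itgae (CD103) and for restraining effector genes.

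The libraries held 2782259 to 3316275 counts each. The defining Treg markers were present: Foxp3, the transcription factor that defines the lineage, had 448, 447 and 407 counts in libraries 1, 2 and 3, and Cd4 had 1892, 1920 and 1501. Exons of Foxp3 overlap those of Ccdc22 on the other strand by 590 bases, and Ccdc22 had 123, 102 and 72 counts, so with strand use not given part of the Foxp3 counts is uncertain. Of the CD8 T cell markers, Cd8a had 0, 0 and 1 counts and Cd8b1 had 71, 62 and 89. Markers of other cell types were low but uneven. The 10 B cell markers summed to 70.3, 171 and 199 CPM in libraries 1, 2 and 3, with 7 of 10 at 1 CPM or more in each library, and the 10 monocyte and macrophage markers to 8.44, 72.8 and 24.4 CPM, with 3 of 10 at that level. Dendritic cell markers summed to 6.33, 22.1 and 11.9 CPM (1 of 7 at that level, Clec9a at 0), neutrophil markers to 0, 4.22 and 1.44 CPM (0 of 7, Mpo and Camp at 0) and erythroid markers to 6.03, 11.7 and 27.7 CPM (2 of 6, Klf1 at 0). In bulk RNA, fewer cells of a type and less RNA per cell cannot be told apart. The libraries thus differed in these markers although the labels call them technical replicates: the macrophage gene Apoe, named after its values were seen, had 11, 84 and 29 counts (adjusted p = 1.03e-13, chi-square test described below).

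The promoter regions of the ligand and receptor genes are shown because Tgfb1 had counts in every library and Tgfb2 in none, and because Tgfbr1 and Tgfbr2 form one receptor. Windows from the RefSeq promoter table (GRCm38.p6, the same assembly as mm10) were read for 5 of the 10 genes. That number describes the windows read here and is no measure of what the RefSeq table covers. The 250 bases before the annotated start are printed 5′ to 3′ on the gene's own strand. Capitals mark CAGAC on either strand (CAGAC or GTCTG), the short core to which Smad3 and Smad4 bind. The regions are chr7:25686752-25687001 on the plus strand for Tgfb1, chr1:186705990-186706239 on the minus strand for Tgfb2, chr4:47352972-47353221 on the plus strand for the first of 2 listed starts of Tgfbr1, and chr9:116175364-116175613 on the minus strand for Tgfbr2.
Tgfb1: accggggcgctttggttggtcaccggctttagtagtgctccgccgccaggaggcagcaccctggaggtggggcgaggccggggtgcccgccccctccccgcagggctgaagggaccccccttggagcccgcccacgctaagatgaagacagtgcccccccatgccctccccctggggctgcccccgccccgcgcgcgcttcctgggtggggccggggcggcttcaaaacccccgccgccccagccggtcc
Tgfb2: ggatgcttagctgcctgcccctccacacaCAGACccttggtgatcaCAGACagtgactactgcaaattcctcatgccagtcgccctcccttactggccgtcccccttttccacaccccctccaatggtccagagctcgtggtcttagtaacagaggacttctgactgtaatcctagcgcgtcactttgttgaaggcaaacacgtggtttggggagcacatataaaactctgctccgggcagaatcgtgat
Tgfbr1: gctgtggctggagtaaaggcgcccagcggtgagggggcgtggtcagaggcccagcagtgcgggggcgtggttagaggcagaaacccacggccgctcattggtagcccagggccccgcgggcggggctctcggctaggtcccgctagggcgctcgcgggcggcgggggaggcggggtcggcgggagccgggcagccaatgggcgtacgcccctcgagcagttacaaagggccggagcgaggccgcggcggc
Tgfbr2: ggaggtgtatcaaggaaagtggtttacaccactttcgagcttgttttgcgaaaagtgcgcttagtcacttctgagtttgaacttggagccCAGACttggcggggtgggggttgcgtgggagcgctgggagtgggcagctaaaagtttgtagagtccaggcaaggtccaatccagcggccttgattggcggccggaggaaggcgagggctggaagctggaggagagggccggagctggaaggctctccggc
The core was found 0 times for Tgfb1, 2 times for Tgfb2, 0 times for this Tgfbr1 start and 1 time for Tgfbr2. It occurs in 42.2% of 32536 distinct promoter windows of the same length, so these matches describe the letters and nothing more. The windows also differed in base composition. Tgfb1 had a GC content of 75.2% with 21 CG dinucleotides and Tgfbr1 74.8% with 29, while Tgfbr2 had 58.4% with 12 and Tgfb2 53.6% with 8. The second Tgfbr1 start (chr4:47385966-47386215, plus strand, not printed) had 52.8% with 3 and held the core 1 time, so the values of Tgfbr1 depend on the start. The window of Smad3, the other gene read (not printed), had 69.2% with 22 and held the core 0 times. The bases just after the Tgfbr2 start matched no annotated transcript of that gene, so its window is uncertain. The median over all windows was 52.4% and 6.

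Among the ligands, Tgfb1 was the main transcript counted. Tgfb1 (chromosome 7, 25687002 to 25705077, plus strand, GRCm38), the isoform most immune cells make, had 32, 31 and 32 counts in libraries 1, 2 and 3, which is 9.65, 10.1 and 11.5 CPM (mean 10.4 ± 0.971, SD, n = 3 libraries). The exact 95% Poisson intervals, which cover counting error only, spanned 6.60 to 13.6 CPM in library 1, 6.84 to 14.3 in library 2 and 7.87 to 16.2 in library 3, so all 3 overlapped. Tgfb1 stood at percentile 43.8 of the 15171 genes with any count, a level in the middle of the distribution.

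Tgfb3 (chromosome 12, 86056745 to 86079041, minus strand), a ligand better known from palate and lung development, had 16, 11 and 14 counts, or 4.82, 3.57 and 5.03 CPM (mean 4.48 ± 0.790). Its coding sequence shared 8.77% of its 31-mers with transcripts of another annotated gene, Gm37804. Tgfb2 (chromosome 1, 186622792 to 186705989, minus strand) had 0 counts in all 3 libraries, which allows up to 0.905, 0.974 and 1.08 CPM at 3 counts per library, a one-sided 95% limit. The two-sided exact Poisson interval used for the other genes reaches 1.11, 1.198 and 1.33 CPM. With Tgfb2 set to 3 counts per library, Tgfb1 was 12.1-fold, 11.7-fold and 12.1-fold higher per coding base in libraries 1, 2 and 3. These folds take the Tgfb1 counts as they stand, without their counting error, and would be smaller with the two-sided limit for Tgfb2. Against Tgfb3, Tgfb1 was 2.11-fold, 2.98-fold and 2.41-fold higher per coding base, with a mean log2 ratio of 1.31 ± 0.25 (SD over libraries). Over summed counts (95 to 41) that ratio was 2.45, with an exact Clopper-Pearson interval of 1.68 to 3.62. Intervals of this kind pool the libraries and cover counting error only, not the spread between libraries or the choice of gene length. All 3 libraries showed the same direction.

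Lrrc32 exceeded each of the ligands per coding base in every library. Lrrc32 (chromosome 7, 98489283 to 98502181, plus strand) had 284, 362 and 307 counts in libraries 1, 2 and 3, or 85.6, 118 and 110 CPM (mean 105 ± 16.7), with library 1 lowest. Per coding base, Lrrc32 exceeded Tgfb1 by 5.23-fold, 6.88-fold and 5.65-fold (mean log2 ratio 2.56 ± 0.20), and over summed counts (953 to 95) by 5.91-fold with an interval of 4.78 to 7.37. GARP is also made by platelets and endothelial cells. The 6 megakaryocyte and platelet markers summed to 2.71, 4.55 and 2.52 CPM, with 0 of 6 at 1 CPM in each library. Gp1bb, the gene of that list at 0, shares 100% of its coding 31-mers with Sept5, so its 0 is no measure of its level. The 9 stromal and endothelial markers summed to 6.33, 7.79 and 4.67 CPM, with 1 of 9 (Col1a1, 15, 17 and 6 counts) at 1 CPM in each library. Of that list, the endothelial gene Cdh5 had 5, 3 and 5 counts, and Tek, Emcn, Pdgfra and Pdgfrb had 0. The part of these cell types in the Lrrc32 counts was not tested.

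Both receptors were present, with more counts on the type I than on the type II chain. Tgfbr1 (chromosome 4, 47353222 to 47414931, plus strand), the kinase that phosphorylates the Smads, had 348, 252 and 277 counts, or 105, 81.8 and 99.6 CPM (mean 95.4 ± 12.1). Tgfbr2 (chromosome 9, 116084293 to 116175360, minus strand), the chain that binds the ligand first, had 179, 191 and 136 counts, or 54.0, 62.0 and 48.9 CPM (mean 54.96 ± 6.63). Library 2 was lowest for Tgfbr1 and highest for Tgfbr2. Per coding base, the ratio of Tgfbr2 to Tgfbr1 was 0.437, 0.644 and 0.417 (mean log2 ratio -1.03 ± 0.34), and 0.490 over summed counts (506 to 877; interval 0.439 to 0.548). The ratio was below 1 in every library, but the value of each library lay outside that interval, which covers counting error only.

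**Figure D1:**
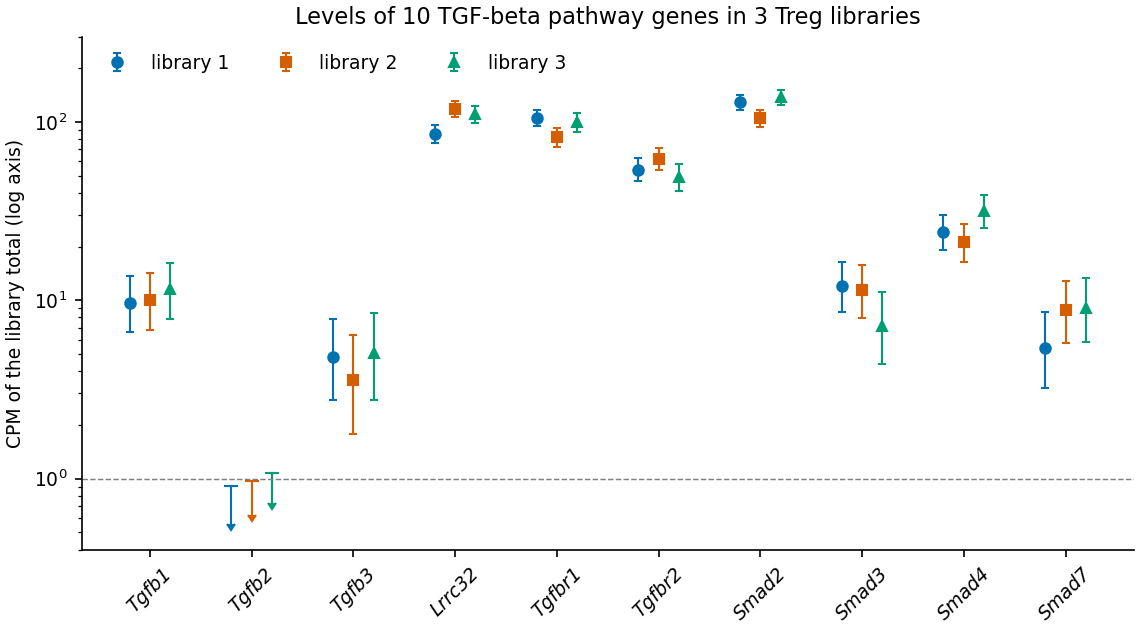
Levels of the 10 genes in CPM on a log axis, not adjusted for gene length, with 1 point per library (circles, squares and triangles for libraries 1, 2 and 3) and exact 95% Poisson intervals as bars. Arrows for Tgfb2 start at the level of 3 counts, the dashed line is 1 CPM, and the 3 libraries of Lrrc32 lie at 85.6, 118 and 110 CPM while those of Tgfb1 lie at 9.65, 10.1 and 11.5.

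The receptor-regulated Smads were unequal. Smad2 (chromosome 18, 76241580 to 76310963, plus strand) had 427, 322 and 382 counts in libraries 1, 2 and 3, or 129, 105 and 137 CPM (mean 124 ± 17.0), with library 2 lowest. Smad3 (chromosome 9, 63646767 to 63757994, minus strand), which unlike the main form of Smad2 binds DNA directly, had 40, 35 and 20 counts, or 12.1, 11.4 and 7.19 CPM (mean 10.2 ± 2.64). Library 3 was lowest for Smad3. Per coding base Smad2 was 9.72-fold, 8.37-fold and 17.4-fold higher than Smad3 (mean log2 ratio 3.49 ± 0.56). Over summed counts (1131 to 95) the ratio was 10.8, with an interval of 8.78 to 13.5. The ratio of library 2 lay below that interval and that of library 3 above it, and Smad3 had only 20 counts in library 3.

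Smad4 (chromosome 18, 73639009 to 73703780, minus strand), the shared partner of Smad2 and Smad3, had 80, 65 and 88 counts, or 24.1, 21.1 and 31.6 CPM (mean 25.6 ± 5.42). Smad7 (chromosome 18, 75367529 to 75395935, plus strand), the inhibitory Smad, had 18, 27 and 25 counts, or 5.43, 8.77 and 8.99 CPM (mean 7.73 ± 1.99). Per coding base, Smad7 stood at 0.0419, 0.0821 and 0.0678 of the sum of Smad2 and Smad3 (mean log2 ratio -4.02 ± 0.50), and at 0.0621 over summed counts (70 to 1226; interval 0.0481 to 0.0791). The Smad7 ratio of library 1 lay below that interval and that of library 2 above it. The genes of Smad2, Smad4 and Smad7 lie near each other on chromosome 18, yet their levels differed widely.

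The order of levels per coding base allows for the length of the coding sequence, but not for the rest of the exons. All annotated exons spanned 8781 bases for Smad2, with 1404 coding, and 4688 for Lrrc32, with 1992 coding. Coding sequences ran from 1173 bases (Tgfb1) to 1992 (Lrrc32). In CPM per 1000 coding bases, Smad2 was highest at 88.0 ± 12.1, followed by Tgfbr1 at 63.1 ± 7.99, Lrrc32 at 52.5 ± 8.41, Tgfbr2 at 30.9 ± 3.73, Smad4 at 15.5 ± 3.27, Tgfb1 at 8.87 ± 0.828, Smad3 at 7.99 ± 2.06, Smad7 at 6.03 ± 1.56 and Tgfb3 at 3.61 ± 0.637. Of the 8 pairs of neighbours in this order, 3 overlapped between libraries, namely Tgfbr1 with Lrrc32, Tgfb1 with Smad3 and Smad3 with Smad7. The other pairs did not, by the library values alone and without counting error. Smad7 and Tgfb3, both with few counts, were barely apart, at 4.24 for the lowest Smad7 value and 4.06 for the highest Tgfb3 value. The upper 5 genes thus were Smad2, Smad4, GARP and the receptors, and the lower 4 were the ligands with counts, Smad3 and Smad7. With the length of all annotated exons in place of the coding length, Lrrc32 came first without overlapping Tgfbr1. Smad2 then came after Tgfbr1 and overlapped it, Smad4 came before Tgfbr2, and 5 pairs overlapped. The order among the upper 5 thus depends on the length used, while the upper 5 and lower 4 hold the same genes with either. The longest coding transcripts had from 2 exons (Lrrc32) to 12 (Smad4). Counts were sparse, at most 0.269 per coding base as the mean count per library (Smad2). The coding 31-mers of the genes other than Tgfb3 were shared with no other gene (0%), and no exon of the 10 genes overlapped an exon of another counted gene.

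**Figure D2:**
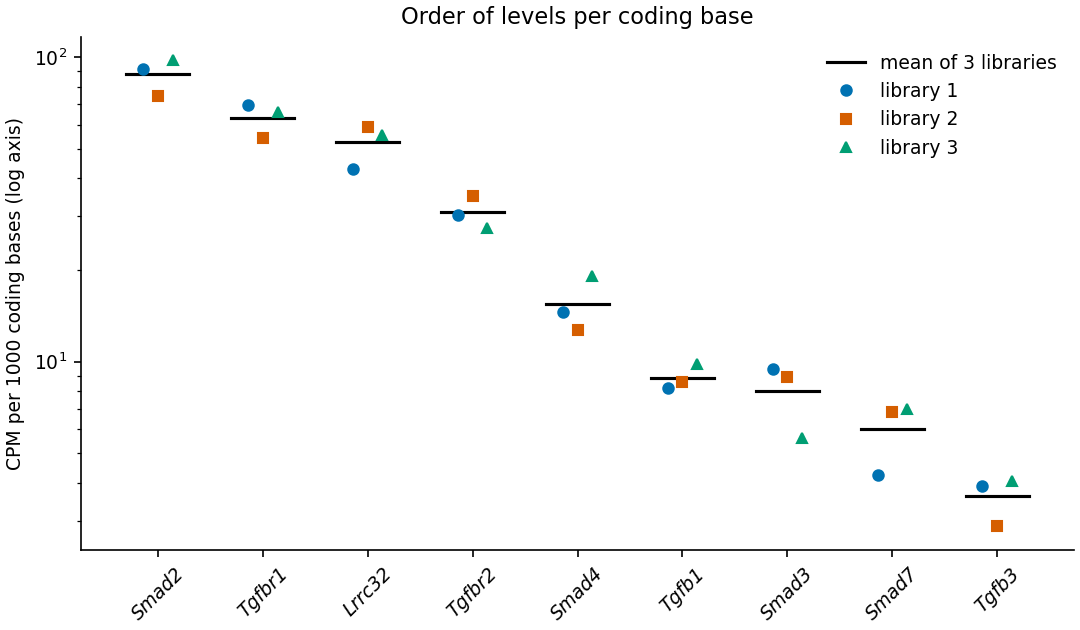
Level of the 9 genes with counts in CPM per 1000 coding bases on a log axis, ordered by the mean of 3 libraries (black bars), with 1 symbol per library. The steps from Lrrc32 to Tgfbr2 (52.5 to 30.9) and from Tgfbr2 to Smad4 (30.9 to 15.5) have no overlap between libraries, while Tgfb1 and Smad3 do overlap.

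Counts differed between the libraries for 3 of the 9 genes tested, Lrrc32, Smad2 and Tgfbr1, where 22.7% of all genes tested did. Each gene's 3 counts were set against the library totals in a chi-square test of homogeneity for the 10043 genes whose counts summed to at least 30, and p-values were adjusted over all of them (Benjamini-Hochberg). The test takes Poisson noise as the sole spread and sets libraries against each other. Lrrc32 was 1.37-fold higher in library 2 than in library 1 (adjusted p = 0.00212, chi-square test), Smad2 1.31-fold higher in library 3 than in library 2 (adjusted p = 0.00784, chi-square test) and Tgfbr1 1.28-fold higher in library 1 than in library 2 (adjusted p = 0.0398, chi-square test). Genes with more counts were called more often across the whole table. Among genes with 300 to under 1000 summed counts, 19.8% of 3388 were called, and 2 of the 3 members of that class (Lrrc32 and Tgfbr1, not Tgfbr2). Among genes with 1000 or more, 39.6% of 2806 were called, and Smad2 is the single member of that class. The 5 members with fewer counts gave 0 calls, where 11.7% of 1582 genes with 30 to under 100 counts and 13.7% of 2267 with 100 to under 300 were called. Their adjusted p-values by the chi-square test were 0.845 for Tgfb1, 0.770 for Tgfb3, 0.289 for Smad3, 0.114 for Smad4 and 0.353 for Smad7, and that of Tgfbr2 was 0.224.

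Each of the 3 calls rested on particular libraries. Without library 1, 1 of them (Smad2) was called, beside 13.1% of all genes, and the adjusted p was 0.650 for Lrrc32 and 0.119 for Tgfbr1 (chi-square test). Without library 2, 1 (Lrrc32) was called, beside 15.3%, and it was 0.716 for Tgfbr1 and 0.593 for Smad2. Without library 3, 2 were called, beside 9.43%, and it was 0.0502 for Smad2. edgeR's quasi-likelihood test of each library against the other 2, which allows for spread beyond Poisson noise and assumes that the lone library varies like the rest, called 0 of the 9 genes and 0.438% of all genes in any library (0.319% for library 1, 0.219% for library 2 and 0.0199% for library 3). By edgeR, 1 of the 9 had an unadjusted p under 0.05, namely Lrrc32 in library 1 with a log2 difference of -0.40 (edgeR adjusted p = 0.918), beside 1414 of all 10043 genes under the same threshold in any library.

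**Figure D3:**
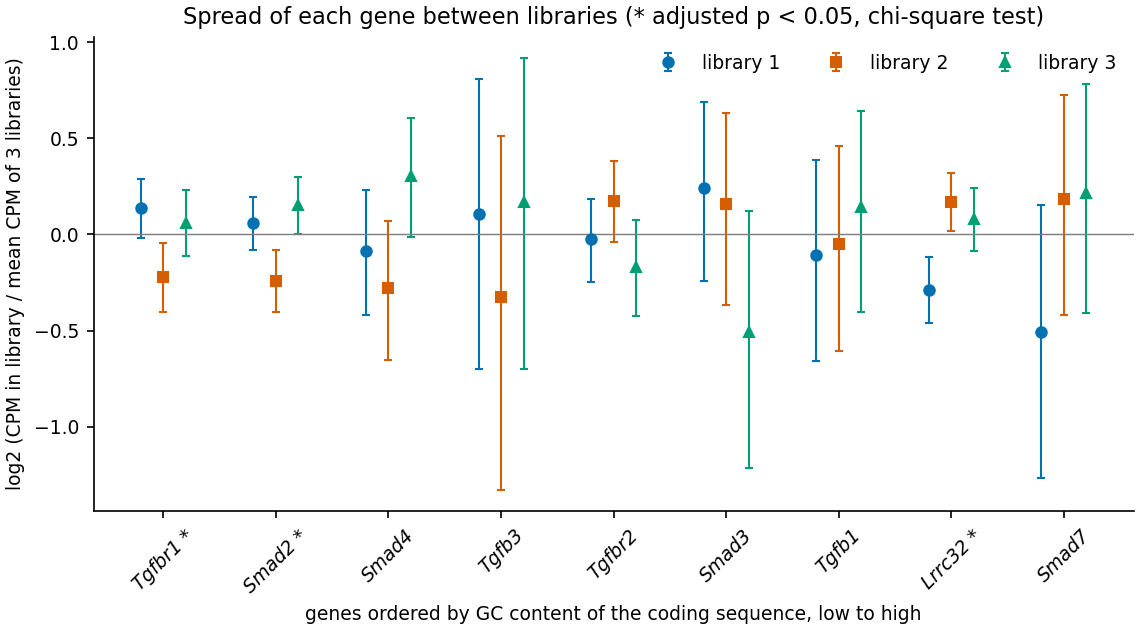
Log2 ratio of each library's CPM to the mean of the 3 libraries for the 9 genes with counts, ordered by the GC content of the coding sequence, with exact 95% Poisson intervals as bars. Library 2 is lowest for Tgfbr1 (-0.22) and Smad2 (-0.24) and library 1 is lowest for Lrrc32 (-0.29). Stars mark adjusted p under 0.05 by the chi-square test.

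The coding GC content of the genes is given beside these differences, and its part in them was not tested. The genes that were lowest in library 2 had coding GC contents of 44.7% (Tgfbr1), 47.9% (Smad2), 50.9% (Smad4) and 54.8% (Tgfb3), and their log2 ratios of library 2 to the mean of the libraries were -0.22, -0.24, -0.28 and -0.33. The genes above the mean in library 2 had 56.3% (Tgfbr2), 56.7% (Smad3), 59.4% (Lrrc32) and 62.6% (Smad7), with log2 ratios of 0.17, 0.16, 0.17 and 0.18. Tgfb1, at 58.4%, lay close to the mean at -0.05. In library 2, the intervals of Smad4, Tgfb3, Tgfbr2, Smad3, Smad7 and Tgfb1 include 0. Across all tested genes with a coding sequence, the median log2 ratio of library 2 was -0.042 in the decile of GC content that holds Tgfbr1, -0.035 in that of Smad2, 0.036 in that of Lrrc32 and 0.085 in the highest decile. Library 1 ran the other way, at -0.097 in the highest decile. In library 2 these shifts were smaller than those of the single genes, and the sign of a gene matched that of its decile for every gene but Tgfb1. In library 1 the sign differed for Smad3, Smad4 and Tgfb3, and in library 3 for Tgfb1 and Lrrc32. With the libraries scaled within GC deciles, an alternative chosen after the data were seen, Lrrc32 and Smad2 were still called, with adjusted p-values of 0.0147 and 0.0315 by the chi-square test, and Tgfbr1 was not, at 0.118, against 20.6% of all genes called. That scaling also put median ratios in place of the library totals. Tgfbr1 also missed the threshold with no GC step, when genes with 1 or more summed counts were tested (adjusted p = 0.0566, chi-square test). B cell markers were also lowest in library 1, like Lrrc32, and monocyte and macrophage markers were highest in library 2, where Smad2 and Tgfbr1 were lowest. The part of these markers in the differences was not tested.

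**Figure D4:**
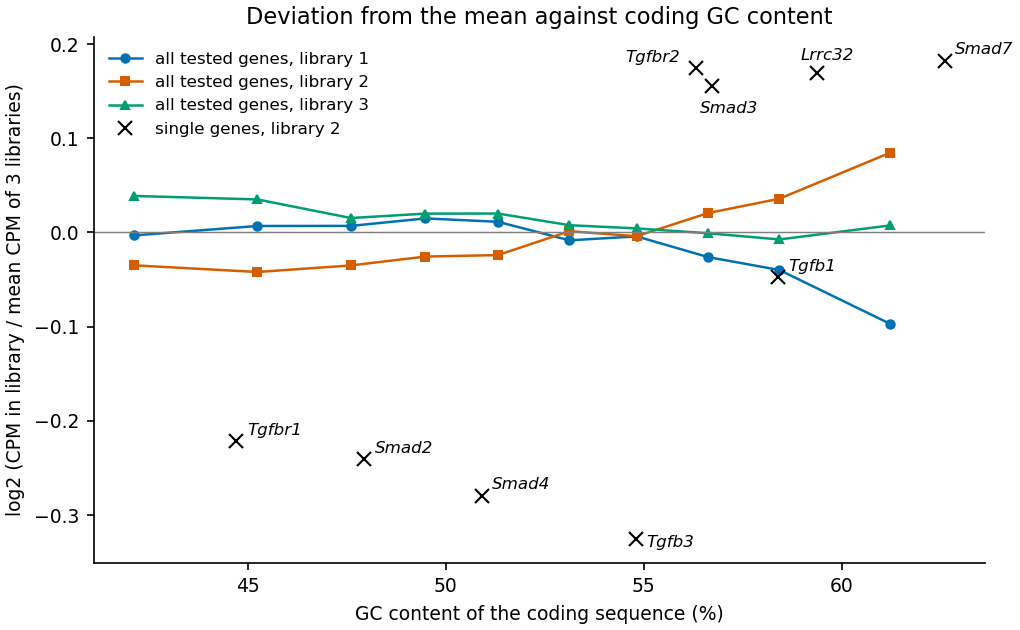
Lines show the median log2 ratio of each library's CPM to the mean of the 3 libraries over all tested genes in 10 classes of coding GC content, and crosses show the single genes in library 2. The line of library 2 runs from -0.035 in the lowest class to 0.085 in the highest, and the crosses of Tgfbr1, Smad2, Smad4 and Tgfb3 lie below 0 while those of Tgfbr2, Smad3, Lrrc32 and Smad7 lie above.

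Around these genes, 94 further genes of the pathway were read in 7 lists. Of these, 61 reached 1 CPM in each library and 13 had no count in any library, with a median of 14.7 CPM, beside 18.0 CPM for the 10 genes above (Tgfb2 included), 18.0 CPM for all 15171 genes with any count and 1.08 CPM for all 22457 counted genes, those without a count included. The chi-square test called 24 of the 59 tested (40.7%), against 22.7% of all genes, and edgeR called 0, with 16 of 59 at an unadjusted p under 0.05 in any library, beside 1414 of all 10043 genes. By the chi-square test, 12 were called without library 1, 17 without library 2 and 11 without library 3, beside 13.1%, 15.3% and 9.43% of all genes. The number of list genes tested in each of these settings is not given here. Over all genes, the share called with all libraries rose from 11.7% at 30 to under 100 summed counts to 39.6% at 1000 or more. The lists were not matched to all genes by counts.

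**Figure D5:**
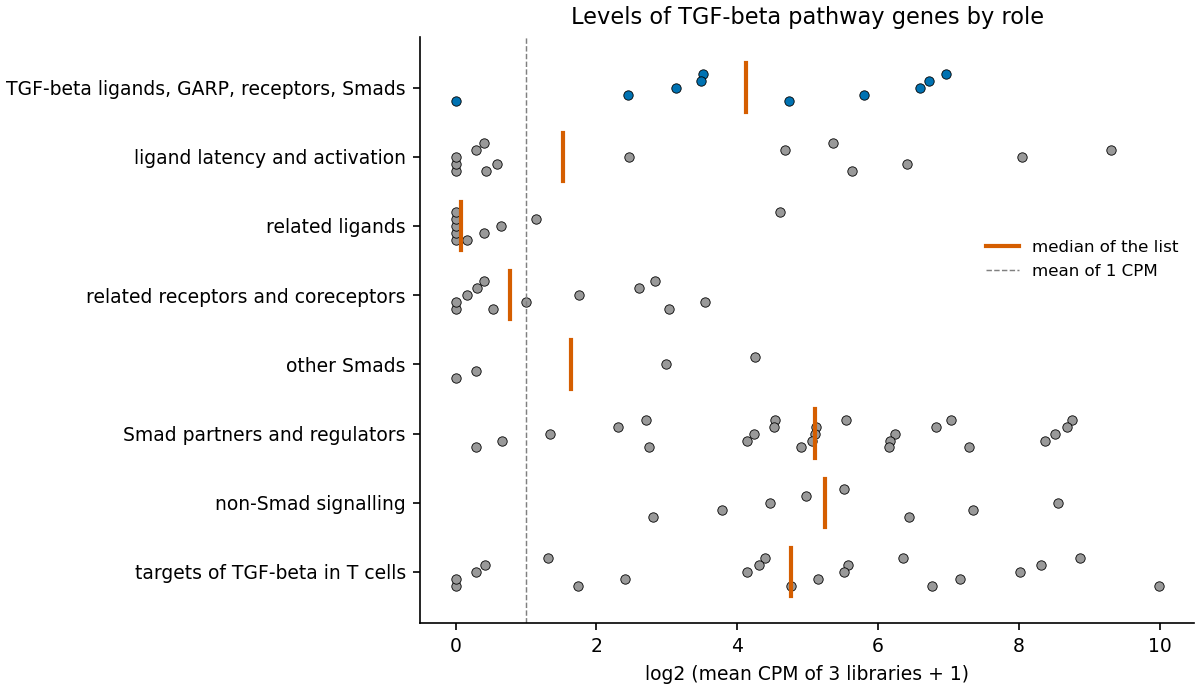
Each point is a gene at log2 of its mean CPM over 3 libraries plus 1, grouped by role with the 10 genes above in the first row (blue), with the list median as an orange bar and a mean of 1 CPM as a dashed line; small vertical shifts only separate the points. Related ligands and related receptors have medians of 0.0599 and 0.725 CPM, and regulators of the Smads have a median of 33.4 CPM.

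Of the 14 genes that hold or activate latent TGF-beta, 7 reached 1 CPM in each library and 3 had no count. Nrp1, a coreceptor found on Treg cells of thymic origin, had 2189, 2061 and 1616 counts (637 ± 48.7 CPM), and Nrros, a relative of GARP that also holds latent TGF-beta, had 909, 764 and 741 counts (263 ± 13.3 CPM). Per 1000 coding bases Nrros stood at 121 CPM and Lrrc32 at 52.5 CPM. The integrin chains Itgb8 and Itgav, which together free TGF-beta from GARP, had 332, 230 and 213 counts (83.8 ± 14.2 CPM) and 183, 134 and 129 counts (48.4 ± 6.08 CPM). Furin, the protease that cleaves the precursor, had 126, 106 and 132 counts. The latent TGF-beta binding proteins, which tether the complex to the extracellular matrix, had few counts: Ltbp1 and Ltbp2 had 0, and Ltbp3 and Ltbp4, named after their values were seen, had 0, 1 and 2 counts and 16, 8 and 17 counts. Itgb6, the epithelial activating integrin chain, also had 0 counts. Between libraries the chi-square test called Nrp1 (adjusted p = 0.000388), Itgb8 (adjusted p = 0.00502) and Mmp9, a protease that can free the ligand (92, 94 and 43 counts, adjusted p = 0.00546).

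Among 10 other ligands of the superfamily, 1 reached 1 CPM in each library and 5 had no count. Bmp7, a bone morphogenetic protein (BMP), had 67, 69 and 76 counts (23.3 ± 3.64 CPM), and per 1000 coding bases it stood at 18.0 CPM, above Tgfb1 at 8.87 CPM. The 5 without a count were Inha, Inhba and Inhbb (subunits of activins and inhibins), Gdf15 and Mstn. Among 12 related receptors, 5 reached 1 CPM in each library. The BMP receptor Bmpr2 had 33, 30 and 34 counts (10.6 ± 1.37 CPM), and the coreceptors Tgfbr3 and Eng had 2, 0 and 2 counts and 0 counts. Acvrl1 (ALK1), a type I receptor known from endothelium, with 39, 9 and 10 counts, was highest in library 1 (adjusted p = 0.00011, chi-square test), and the activin receptor Acvr2a, with 22, 9 and 33, was lowest in library 2 (adjusted p = 0.00258, chi-square test). Exons of Acvr2a overlap those of Orc4 on the other strand, so with strand use not given its counts are uncertain. Of the remaining Smads, Smad5, which carries BMP signals, had 61, 55 and 50 counts (18.1 ± 0.281 CPM), Smad1 18, 22 and 23, Smad6, an inhibitory Smad, 1, 0 and 1, and Smad9 had 0.

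Regulators of the Smads were widely detected, with 23 of 25 at 1 CPM or more in each library and 12 of 22 tested called between libraries by the chi-square test, beside 22.7% of all genes and 39.6% of those with 1000 or more summed counts. The deubiquitinases Usp4 and Usp15, which act on the TGF-beta receptor, had 429 ± 65.1 and 411 ± 39.2 CPM, the ubiquitin ligase Wwp2 had 366 ± 26.7 and the coactivator Crebbp 330.04 ± 8.65. Skil, which encodes the Smad corepressor SnoN and is named after its values were seen, had 399, 322 and 307 counts. It stood at 55.1 CPM per 1000 coding bases, and Smad7, another negative regulator of the pathway, at 6.03. With very few counts, Zfyve9, which presents Smad2 and Smad3 to the receptor, had 1, 0 and 4 counts and Foxh1, a DNA-binding partner used in the embryo, had 0, 1 and 1. All 8 genes of the non-Smad branch reached 1 CPM in each library. The kinase gene Rock1 had 376 ± 12.3 CPM, and the kinase gene Map3k7 (TAK1) and its partner Tab3 had 12.8 ± 2.15 and 5.96 ± 2.13 CPM. Map3k7 shares 28.8% of its coding 31-mers with another annotated gene, so its counts are uncertain.

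Genes known to respond to TGF-beta in T cells spanned the whole range, with 15 of 21 at 1 CPM or more in each library. Itgae, which TGF-beta induces, had 3561, 3067 and 2698 counts (1013 ± 54.1 CPM), and the chemokine receptor Ccr8 had 997, 948 and 952 counts (317 ± 22.2 CPM). Gzmb, a cytotoxic effector that TGF-beta is known to repress, had 1484, 1454 and 1334 counts (466 ± 16.8 CPM). Id2, a repressor of E proteins, had 813, 788 and 768 counts. Il9, induced by TGF-beta in other T helper cells, had 0 counts, and Il2, which it represses and which is named after its values were seen, had 0, 1 and 1. With a single condition, these levels do not show whether any of these genes was responding to TGF-beta.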

How the data were processed

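The authors deposited whole-number counts per gene, 1 table per library, without scaling. Reads were aligned to mm10 and counted on GENCODE M4, per the notes the authors deposited. The sources used here name no aligner or counting program and do not say how strand, duplicates or multiply matching reads were handled. Symbols came from GENCODE M21 (GRCm38, the same assembly), which matched 22195 of 22457 identifiers. Coding length and GC content were taken from the longest coding sequence, stop codon included (21784 genes). CPM was computed as counts per 1e6 of the library total. Detection meant 1 CPM or more in each of 3 libraries, and 3 counts were taken as the limit that a count of 0 allows. Intervals are exact at 95%.

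The chi-square test (scipy 1.17.1) had 2 degrees of freedom, a minimum of 30 summed counts and an adjusted threshold of 0.05. Alternatives were edgeR 4.0.16 (TMM scaling, quasi-likelihood test), DESeq2 1.42.0 size factors, other minimums, exon length and leaving out each library. Scaling within 10 classes of coding GC content was added after the data were seen. The gene lists and members were chosen with earlier results of these data known. Named are the 10 genes, Foxp3, Cd4 and Cd8a, and for each pathway list up to 4 genes with the highest and 2 with the lowest mean CPM, plus every gene called where a list had 5 or fewer calls; exceptions are marked, and some genes the rule names are not reported here.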

Additional observations from a re-analysis of the deposited data

How the results depend on the processing

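Of the 10 genes, 9 were detected under every alternative run (each library left out, TMM scale, DESeq2 size factors, and 0.5 or 2 CPM as the limit). Most of these settings could not change that number. Leaving out a library or lowering the limit cannot lose a gene, and Tgfb2 at 0 counts cannot be gained. The other scales moved a library by at most 0.029 log2, and the lowest value of the 9 was 3.57 CPM (Tgfb3 in library 2). The number of genes called different between libraries was 904 to 1466 with 1 library left out, against 2277 with all 3, and 44 by edgeR's quasi-likelihood test. Among the 10 genes it was 1 to 2 and 0, against 3, and among the 94 pathway genes 11 to 17 and 0, against 24. Over all alternatives, the adjusted p ran from 0.00192 to 0.908 for Lrrc32, from 0.0055 to 0.761 for Smad2 and from 0.0332 to 0.945 for Tgfbr1, which also missed the threshold when genes with 1 or more summed counts were tested (0.0566, chi-square test). With exon length in place of coding length, the mean log2 ratio was 0.65 for Tgfb1 over Tgfb3 and 3.42 for Lrrc32 over Tgfb1. It was -3.25 for Smad7 over Smad2 plus Smad3, 2.96 for Smad2 over Smad3 and -1.12 for Tgfbr2 over Tgfbr1. Apart from Tgfbr2 over Tgfbr1, these values fell outside the intervals given for coding length. With exon length, 3 neighbours in the order were separate in place of 5 (5 to 7 with 1 library left out). Of the pathway genes, 59 to 63 were detected under the alternatives. The ratios were run only with 1 library left out and with exon length. All 5 kept their direction with exon length. Leaving out a library could not change it, since all libraries shared the direction of each ratio. No paired analysis was possible because all libraries belong to 1 group. Under about 100 summed counts (Tgfb1, Tgfb3, Smad3 and Smad7), counting error alone limits what can be told apart.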
